A study of Mus musculus with 16 samples.

Results

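Testis RNA of Ythdc2 conditional knockout (cKO) mice was compared with that of Cre control mice at postnatal day 16 (P16). The comparison used 7 of the 16 libraries of the series, namely the columns of the single deposited table that holds both groups, with 3 cKO and 4 Cre control libraries. All 7 came from testes of mice treated with tamoxifen (10 mg per ml, given on P12 and on P13), so the controls had received the agent that switches on an inducible Cre. The labels describe the controls only as Cre control. They do not give the promoter that drives the Cre, the state of Ythdc2 in the controls, the strain, the deleted part of the gene or the number of animals behind a library. Nothing says that replicates came from separate animals, so the p-values measure the spread between these libraries, which may be technical.

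The libraries did not share a kit for the removal of ribosomal RNA. Per the labels, cKO libraries 1 and 2 were made with Ribo-Zero components, whereas cKO library 3 and the 4 Cre controls were made with the NEBNext depletion kit. Per the column names, cKO 3 shared its sequencing run with Cre control 1, Cre controls 2 to 4 were sequenced in another run, and the P16 Ribo-Zero libraries in a run of their own. Genotype and kit are therefore mixed in the table: with the kit in the model, the contrast has a weight of 1 on cKO 3, of -0.25 on each Cre control and of 0 on cKO 1 and 2. For this reason results are given for cKO 3 against the Cre controls, for a fit over both kits, or in both ways. A lack of overlap between all cKO libraries and the Cre controls also holds the difference in kit. A rise or fall in the fit over both kits need not show in cKO 3 alone. That fit adds the 2 P16 control libraries made with Ribo-Zero, from tamoxifen-treated mice whose genotype is labelled control and whose columns are named WT. Each kit then holds cKO and a control, but the Ribo-Zero control is this WT-named one and not the Cre control.

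YTHDC2 is an RNA helicase of germ cells with a YTH domain, the fold that recognises methylated adenosine in RNA. It acts with the germ cell proteins MEIOC and RBM46, and mouse germ cells that lack any of them fail to hold meiotic prophase and enter an abnormal division. In prophase the protein SPO11 breaks the chromosomes, recombinases such as DMC1 coat the ends, and the synaptonemal complex joins the paired chromosomes along their axes. Telomeres are meanwhile tied through the nuclear envelope to motors on microtubules, which move the chromosomes into pairs.

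The Cre controls held 17207146 to 23200252 reads on genes and the cKO libraries 14741293 to 26927274, with the lowest total in cKO 3. Unmapped reads took 30.7% to 41.1% of reads with NEBNext and 18.9% to 21.1% with Ribo-Zero, and the 10 most abundant genes took 4.60% to 4.99% and 17.0% to 18.1% of gene reads. Across the tested genes the median absolute log2 difference of a Cre control from the mean of the other Cre controls was 0.14 to 0.21. It was 0.23 for cKO 3 and 0.44 for both cKO 1 and cKO 2, each against the mean of all Cre controls. Markers of the labelled tissue were present, with 20 of 20 Sertoli, 13 of 14 Leydig and 28 of 29 pachytene germ cell genes passing the filter on low values. All levels below are deposited normalized counts (reads divided by a size factor of the library), and all differences are on the log2 scale.

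Ythdc2 (ENSMUSG00000034653) stood at 1711, 1392, 2633 and 1597 normalized counts in Cre controls 1 to 4, and at 411, 446 and 226 in cKO libraries 1 to 3. Every cKO library lay below every Cre control, and cKO 3 was the lowest of the 7, on 171 reads against 1489 in Cre control 1. With the kit as a covariate the log2 difference was -2.97 (SE 0.27, limma adjusted p 0.0322). It was -2.91 against Cre control 1 alone, the library of the same kit and run. In the fit only cKO 3 stands on the cKO side of the difference. The SE draws on the spread of the Cre controls and of cKO 1 and 2, and no spread between NEBNext cKO libraries enters it. The limma adjusted p was 0.063 without Cre control 2 and 0.0516 without cKO 1. Over the other alternatives fitted on the same columns it ran from 4.22e-24 with DESeq2 to 0.108 with edgeR, apart from the replicate block.

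With the kit as a covariate Ythdc2 was the only one of 19200 tested genes to pass an adjusted p of 0.05 (0.00521% of genes, termed called), and 3604 genes (18.8%) passed an unadjusted p of 0.05. edgeR called 0 genes with 3405 at an unadjusted p under 0.05, DESeq2 called 143 higher and 324 lower, and limma without Cre control 4 called 58 higher and 198 lower. Without a kit term, 1741 genes were called (9.07%), 825 higher (4.3%) and 916 lower (4.77%), a split that became 1795 and 1299 under quantile scaling and 1027 and 527 with edgeR. These counts turn on single libraries: leaving out any of the other 6 libraries brought both counts to 0 with limma (4111 to 6649 genes at an unadjusted p under 0.05, against 38.4% of genes with all 7 libraries), and leaving out cKO 3 brought them to 3843 and 5584. In each of the 1741 called genes cKO 3 itself lay beyond all 4 Cre controls in the called direction. Of the 916 lower genes 159 were processed pseudogenes. The 1837 tested processed pseudogenes had a median difference of -2.87 without a kit term, of -0.42 between cKO 3 and the Cre controls and of 0 within Ribo-Zero. The last value need not mean no change, as values near 0 leave little room for a difference. Gm7856 held 144 to 220 in the Cre controls and 0.95 to 2.08 in the Ribo-Zero controls and their cKO, whereas Gm36298 held 62.4 and 77.9 in those controls. Levels over the whole group were not examined.

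The fit over both kits called 1358 of 19528 genes higher (6.95%) and 1423 lower (7.29%), and "rose" and "fell" are used below for genes called in it. These shares of all genes are the background for each list count below. Of the genes called without a kit term, 520 of the 825 with a higher level and 509 of the 916 with a lower level were also called here with that sign, and 0 with the other sign. The counts fell to 314 higher and 361 lower without cKO 1, to 610 and 663 without cKO 2, to 509 and 919 without cKO 3, and to 415 to 433 and 428 to 434 without either Ribo-Zero control. This fit shares cKO 1 and 2 with the fit without a kit term, so the overlap is not independent support.

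Meioc (ENSMUSG00000051455), the partner of YTHDC2, was higher in every cKO library. It stood at 5322, 3439, 3924 and 3959 in the Cre controls, at 18959 and 21861 in cKO 1 and 2, and at 9786 in cKO 3. The groups did not overlap, and the single cKO library of the controls' own kit held more than any Cre control. Its level was 1.25 above the mean of the Cre controls and 0.88 above the highest of them on the log2 scale. In their own scaling the Ribo-Zero controls held 11559 and 11322, and cKO 1 and 2 held 23147 and 26517. The distance of cKO 1 and 2 from the Cre controls is thus not one of genotype alone. Meioc rose by 1.19 in the fit over both kits (SE 0.12, limma adjusted p 0.00137), which held in each of the 16 alternatives. Rbm46, the third member of the complex, stood at 1815, 1345, 1480 and 1533 in the Cre controls and at 3312, 3800 and 2153 in cKO. It rose by 0.52 (SE 0.093, limma adjusted p 0.00763), and again the groups did not overlap. The same limit applies, as the Ribo-Zero controls in their own scaling held 3044 and 2967, against 4044 and 4610 in cKO 1 and 2. Xrn1, the exonuclease that YTHDC2 is known to bind, differed by 0.25 and just missed the threshold (limma adjusted p 0.0527). The methyltransferase genes Mettl3 and Mettl14 and the reader gene Ythdf2 differed from the Cre control mean by 0.01 to 0.04 in cKO 3 and were not called. Within Ribo-Zero their differences were -0.10, -0.43 and -0.16, and over both kits -0.03, -0.22 and -0.06.

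**Figure D1:**
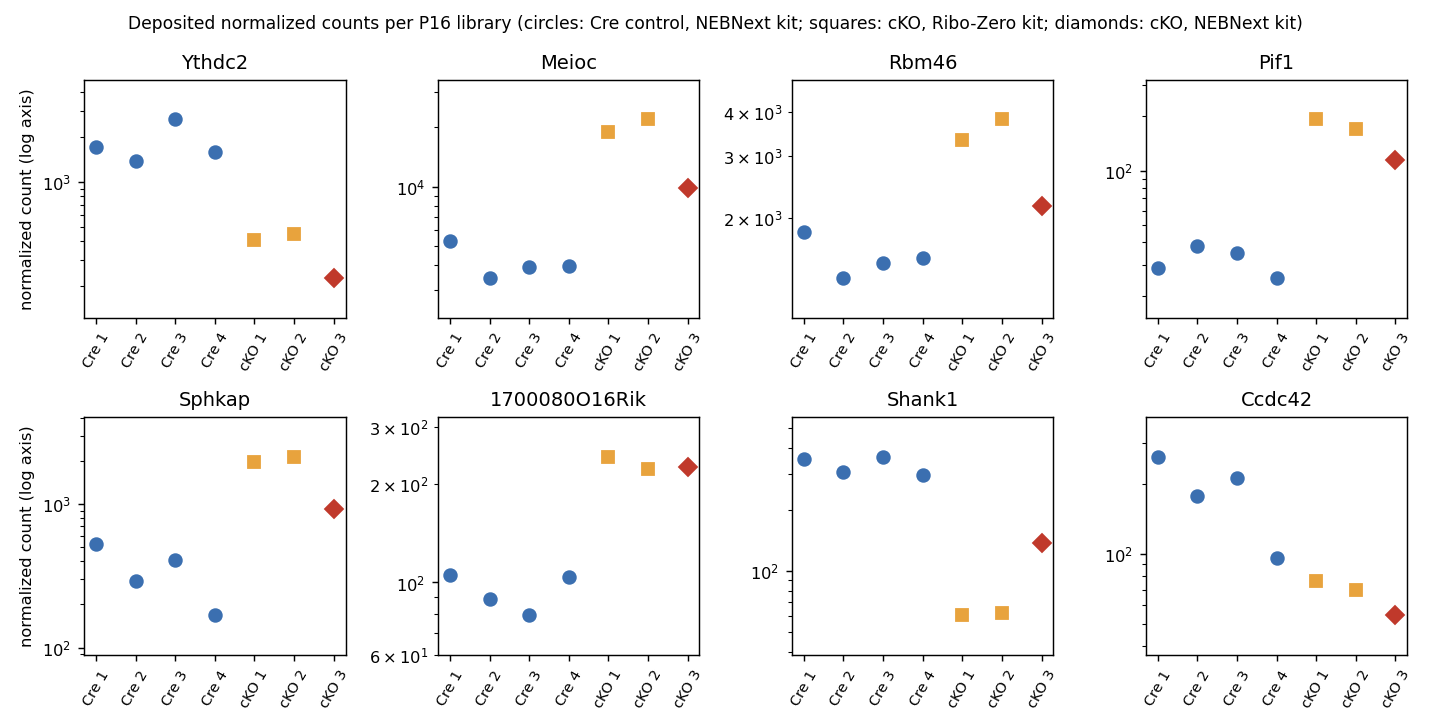
Deposited normalized counts (log axis, a scale of its own in each panel) of 8 genes in each of the 7 P16 libraries. Circles are Cre controls (NEBNext kit), squares cKO 1 and 2 (Ribo-Zero kit) and diamonds cKO 3 (NEBNext kit). For each gene the 3 cKO libraries lie on one side of the 4 Cre controls, as for Meioc with 9786 to 21861 against 3439 to 5322. The squares differ from the circles in kit as well as in genotype.

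Besides Meioc, 11 protein-coding genes were named for the largest excess of cKO 3 over the Cre controls among genes called higher without a kit term, with all 3 cKO libraries above all 4 controls. Of all tested genes, 13.2% had all 3 cKO libraries above all Cre controls. Pif1, a DNA helicase of replication forks and telomeres, led with 28.7, 38.3, 34.8 and 25.3 in the Cre controls against 192, 171 and 114 in cKO. It rose by 1.93 (SE 0.18, limma adjusted p 0.00100), and the Ribo-Zero libraries alone gave a difference of 1.99. Sphkap, which encodes an anchoring protein of protein kinase A, stood at 528, 291, 407 and 167 against 1967, 2136 and 921. It rose by 1.71 (SE 0.29), though its controls spread over more than a log2 unit. Gm37517 lies over it on its own strand, and Gm6374 on the opposite strand. 1700080O16Rik was nearly level across the 3 cKO libraries, with 106, 89.1, 79.2 and 104 in the controls and 242, 223 and 225 in cKO. It rose by 1.11 (SE 0.15).

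Of the other named genes 6 were called over both kits. Depdc1a rose by 1.16, AI987944 by 1.16, Prom1, which encodes the membrane protein prominin, by 1.56, Slc16a7, a monocarboxylate transporter, by 1.44, Gm6268 by 0.71 and Bank1, a scaffold protein known from B cells, by 1.24. mt-Co3, a mitochondrial gene for a cytochrome oxidase subunit that overlaps mt-Atp6, and Zfp97, a zinc finger gene, were not called over both kits. Their differences were 1.25 and 1.09 in cKO 3 but 0.05 and 0.18 within Ribo-Zero. Prom1 overlaps Gm42716 on the same strand.

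After Ythdc2, 11 protein-coding genes were named for the largest deficit of cKO 3 by the same rule. Of all tested genes, 16.9% had all 3 cKO libraries below all Cre controls. Ccdc42, which encodes a coiled-coil protein needed for the sperm tail, stood at 262, 178, 212 and 96.3 in the Cre controls and at 76.3, 70.0 and 54.3 in cKO. The cKO libraries were all lower, with Cre control 4 the nearest to them, and the gene fell by 1.43 on the log2 scale (SE 0.27, limma adjusted p 0.00851). Shank1, a scaffold protein gene known from synapses that overlaps 1700008O03Rik on the other strand, stood at 353, 306, 363 and 295 against 60.4, 62.3 and 138. It was lowest in the Ribo-Zero libraries and fell by 1.00 (SE 0.13). Ttbk1, a tau tubulin kinase gene, went from 1783, 1612, 1816 and 1212 to 485, 575 and 679 and fell by 0.95 (SE 0.14).

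Ppp1r36 (a regulatory subunit of protein phosphatase 1), 1700018B08Rik, Svop, Capn11 (a calpain of the testis) and Crtam (an adhesion molecule) also fell, with log2 differences of -1.66 to -1.05. Svop overlaps Usp30 on the other strand. Gm7075, Il4i1 and Tekt2 were not called over both kits. Gm7075 stood at 18.4 in Cre control 1 and at 131 to 185 in the other Cre controls, against 0.795 to 10.6 in cKO, so 1 control lay close to the cKO level. The Ribo-Zero controls held 0 and 1.89 in their own scaling. Gm7075 was thus scarce with that kit in both genotypes, and the difference there was 0.90. Il4i1, which shares its strand and position with Nup62, had an adjusted p of 0.0616 (limma), and Tekt2, a tektin gene of the flagellum, one of 0.0628. Tekt2 stood at 105 to 282 in the Cre controls but at 32.2 and 35.0 in the Ribo-Zero controls, in their own scaling. Its difference within Ribo-Zero was -0.59.

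The genes of early meiotic prophase were mostly lower in cKO within each kit. Over 4 lists (break formation, strand invasion, the synaptonemal complex and axis, and crossover designation) 47 genes were tested in both kits. Within Ribo-Zero, where the median difference of all tested genes was 0, 44 of them were lower in cKO, and in both kits 39. The share of all tested genes that were lower in both kits was not counted. Within NEBNext 41 were lower in cKO 3 than the Cre control mean, as were 52.8% of all tested genes. Fewer spermatocytes and less RNA per spermatocyte cannot be told apart in whole testes, here or below. The medians of the lists in cKO 3 ran from -0.42 to -0.33.

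Of the 10 genes of double-strand break formation, 7 fell and the other 3 did not pass the test. In cKO 3 alone, 6 of the 10 were below all 4 Cre controls, against 30.0% of all tested genes. The count of falls was 4 without Ribo-Zero control 1. The list's median was -0.42 in cKO 3, outside the range of -0.20 to 0.15 that the 4 Cre controls spanned when each was set against the other 3, and -1.13 within Ribo-Zero. Mei1, needed for break formation, stood at 584, 466, 598 and 682 in the Cre controls and at 213, 224 and 355 in cKO, with no overlap, and fell by 1.33 on the log2 scale (SE 0.21, limma adjusted p 0.00517). Prdm9, which encodes the methyltransferase that marks hotspots, went from 452, 354, 381 and 412 to 239, 225 and 281. All cKO libraries were lower, and the gene fell by 1.11 (SE 0.20). Ccdc36 (also Iho1), a partner of the break machinery, stood at 500, 416, 441 and 479 against 302, 338 and 277 and fell by 1.12 (SE 0.14). It overlaps 1700102P08Rik on the other strand. Zcwpw1, a reader of the marks made by PRDM9, fell by 0.81, Spo11 by 0.51, Rec114 by 0.67 and Ankrd31 by 0.43. Rec114 differed by only -0.09 in cKO 3, within the range of the Cre controls, and by -1.16 within Ribo-Zero. Mei4 was 0.36 above the Cre control mean in cKO 3 but differed by -1.20 within Ribo-Zero. Its difference over both kits was -0.49 and was not called.

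In the list of the synaptonemal complex and chromosome axis 9 of 14 genes fell. In cKO 3, 12 of the 14 were below all Cre controls, against 30.0% of all tested genes. With the kit as a covariate 10 passed an unadjusted p of 0.05, against 18.8% of all tested genes. The list's median was -0.42 in cKO 3 (Cre controls -0.26 to 0.23) and -0.50 within Ribo-Zero, and the count of falls was 5 without cKO 1 or Ribo-Zero control 2. Stag3, the meiotic cohesin subunit, stood at 9576, 7573, 9363 and 8324 in the Cre controls and at 5236, 5543 and 5266 in cKO. The cKO libraries of both kits were alike and lay below every control, and Stag3 fell by 0.71 on the log2 scale (SE 0.078, limma adjusted p 0.00192). The kleisin gene Rad21l went from 592, 506, 475 and 551 to 268, 287 and 341, without overlap, and fell by 1.15 (SE 0.17). Syce2, of the central element, fell by 0.71, and Smc1b, another cohesin subunit, by 0.56. For Smc1b cKO 1 and 2 held 5113 and 5707, within the Cre controls' 4567 to 5865, so this fall shows within each kit and not across the 7 columns. Syce1, Syce3, Tex12, Smc3 and Sycp3 fell by 0.34 to 0.48 on the log2 scale. For Sycp3 (7948 and 8209) and Smc3 (3330 and 3333) cKO 1 and 2 lay above every Cre control, whose highest values were 6559 and 2905, so these falls too show only within each kit. Rec8, Sycp1 and Sycp2 were not called.

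Strand invasion genes followed with 5 of 11 falling (median -0.33 in cKO 3, Cre controls -0.22 to 0.25). Hsf2bp, which helps to load the recombinases, stood at 1272, 892, 1138 and 1000 against 787, 914 and 635 and fell by 0.62 on the log2 scale. cKO 3 was the lowest, and cKO 2 lay above Cre control 2. Dmc1 fell by 0.57, Psmc3ip (also Hop2) by 0.51 and Rad51c by 0.48, while Meiob and Mnd1 differed by 0.01 and -0.01 and were not called. For Dmc1 cKO 3 held 892, within the Cre controls' 851 to 1199. The count was 2 of 11 without cKO 1, cKO 2 or either Ribo-Zero control, and 3 without cKO 3.

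Crossover designation genes had 3 of 13 falling, with 1 without Ribo-Zero control 1 and 5 without Cre control 2. Msh5, which holds crossover intermediates, stood at 691, 608, 730 and 725 against 259, 245 and 406, without overlap, and fell by 1.01 on the log2 scale (SE 0.11, limma adjusted p 0.00192). Rnf212b and the helicase gene Hfm1 fell by 0.51 and 0.44. For telomere attachment and movement it was 2 of 11: Terb1, of the complex that anchors telomeres, fell by 0.69, and Sun1, which spans the nuclear envelope, by 0.44. Ccdc155 (also Kash5), which links SUN1 to dynein, stood at 1965, 1447, 2007 and 1421 against 819, 1010 and 822. All cKO libraries were lower in these columns, but the difference was -1.04 in cKO 3 and -0.18 within Ribo-Zero, and the gene was not called over both kits (limma adjusted p 0.0619). Of the motors and microtubule genes few were called. Among kinesin and dynein genes 2 of 28 (Kif27 and Kif23) fell, near the 7.29% of all genes. Kif23 differed by -0.08 in cKO 3 and by -0.68 within Ribo-Zero. Of 27 tubulins and microtubule regulators 4 rose (Tuba1b by 0.38, Tuba1c by 0.39, Clasp1 by 0.25 and Clasp2 by 0.32) and Mapre3 fell by 0.35 on the log2 scale. The number of these rises was 0 without cKO 3 and 1 to 2 without cKO 1, cKO 2 or either Ribo-Zero control, and of the kinesin falls 0 without any of these but cKO 3. For Tuba1b cKO 1 and 2 held 1911 and 1770, below every Cre control (2026 to 2439), so its rise shows only within each kit.

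**Figure D2:**
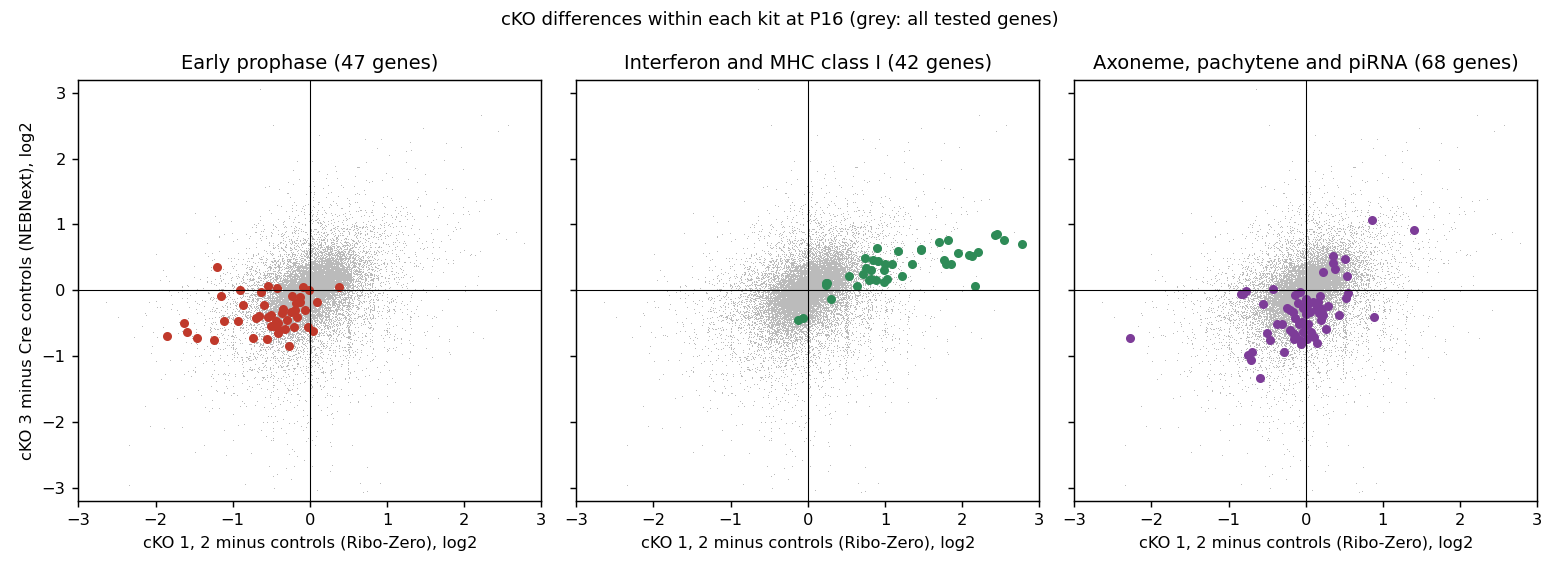
Differences between cKO and control within the Ribo-Zero kit (horizontal, cKO 1 and 2 minus the 2 controls) and within the NEBNext kit (vertical, cKO 3 minus the 4 Cre controls), both on the log2 scale. Grey points are all 19200 tested genes, 14 of which lie outside the axes. Of the 47 early prophase genes 39 lie at the lower left, and of the 42 interferon and MHC class I genes 39 lie at the upper right. The share of all tested genes in these corners was not counted. Of the 68 axoneme, pachytene and piRNA genes 59 are lower in NEBNext and 33 in Ribo-Zero.

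Genes of later germ cell stages were also lower in cKO 3, but within the spread of the Cre controls. The median of 23 tektin and axoneme genes was -0.65 in cKO 3, while Cre control 4 stood at -0.82 and Cre control 1 at 0.68 against the other Cre controls. For 28 genes of pachytene and later stages it was -0.28, against -0.52 in Cre control 4 and 0.58 in Cre control 1, and for 19 piRNA pathway genes -0.19, against -0.24 in Cre control 2 and 0.32 in Cre control 1. Within Ribo-Zero the 3 medians were -0.16, 0.14 and -0.03. Over both kits 3 axoneme genes fell (Dnali1 by 0.85, Cfap44 by 0.83 and Ccdc40 by 0.57 on the log2 scale), a count of 0 without cKO 1, cKO 2, cKO 3, Cre control 3 or either Ribo-Zero control and of 8 without Cre control 4. For Dnali1, an axonemal dynein light chain gene, the Cre controls ran 508, 289, 442 and 196 and cKO 246, 223 and 160, so that control 4 overlapped the cKO group. Zpbp, which encodes an acrosome protein that binds the zona pellucida, was the only pachytene gene called over both kits. In cKO 3, 5 of the 28 were above the Cre control mean, against 47.2% of all tested genes. Zpbp stood at 818, 525, 611 and 475 against 1906, 2204 and 1117, without overlap, and rose by 1.20 (SE 0.16, limma adjusted p 0.0036). It overlaps Spata48 on the other strand. Of the piRNA genes 0 were called by limma, with 1 higher and 3 lower at an unadjusted p under 0.05 (31.5% of all genes passed it). edgeR called 0 of them and DESeq2 1 higher and 1 lower.

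**Figure D3:**
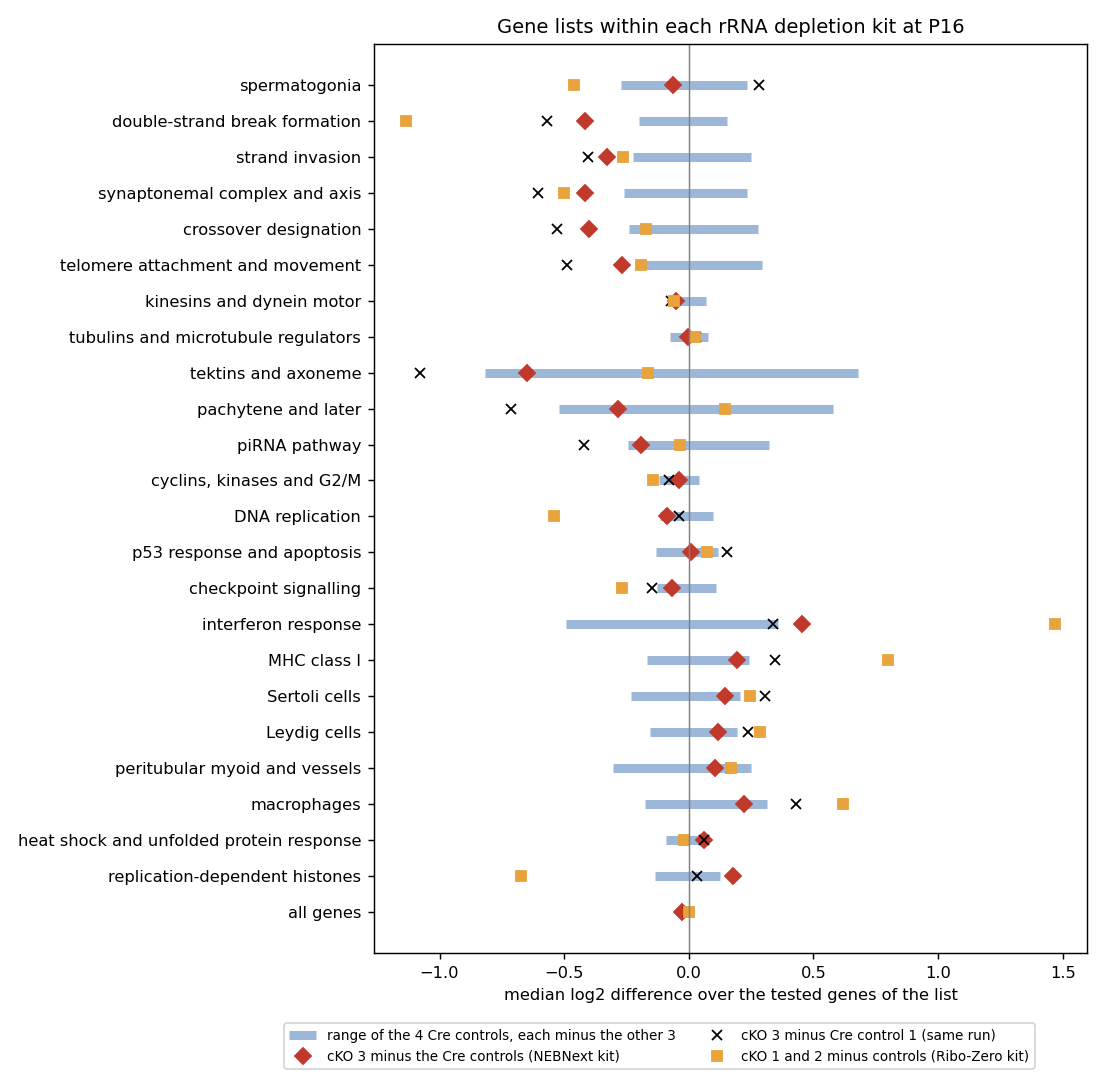
Median log2 difference of the tested genes of each list. Diamonds are cKO 3 minus the Cre controls, crosses cKO 3 minus Cre control 1 (same run), squares cKO 1 and 2 minus the Ribo-Zero controls, and bars the range of the 4 Cre controls, each minus the other 3. The diamonds of break formation (-0.42) and the synaptonemal complex (-0.42) lie below the bars, that of the interferon response (0.45) above its bar, and that of tektins and axoneme (-0.65) within it.

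Among spermatogonial genes 3 of 21 fell, with a median of -0.06 in cKO 3 (Cre controls -0.27 to 0.23) and -0.46 within Ribo-Zero. The count was 7 without Cre control 1, 6 without cKO 3, and 1 without cKO 1, cKO 2 or either Ribo-Zero control. Prss50, a protease gene of premeiotic and early meiotic germ cells, stood at 1599, 1324, 1579 and 1448 in the Cre controls and at 688, 784 and 756 in cKO. The cKO libraries of both kits were alike and below all controls, and it fell by 1.33 on the log2 scale (SE 0.13, limma adjusted p 0.00133). Ccnd1 (cyclin D1) fell by 0.62 and Egr4 by 0.60. In cKO 3 they differed from the Cre control mean by -0.21 and -0.35. Gfra1, a receptor subunit of stem spermatogonia, was 0.43 above the Cre control mean in cKO 3 and was not called (limma adjusted p 0.214).

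DNA replication genes had 8 of 22 falling and Pif1 rising. The list's median was -0.09 in cKO 3, inside the Cre controls' -0.12 to 0.10, and -0.54 within Ribo-Zero. Mcm5, of the replicative helicase, stood at 3133, 3166, 3496 and 3420 against 2086, 2050 and 2669. There was no overlap, though cKO 3 was nearer to the controls, and it fell by 0.63 on the log2 scale (SE 0.11). Cdc45 fell by 0.56, and Pold1, a polymerase gene, by 0.52. The count of falls was 15 without cKO 3. Of 30 cyclin, kinase and G2/M genes, 3 rose and 4 fell, against 6.95% and 7.29% of all genes. Plk1, the kinase of mitotic entry, stood at 678, 682, 709 and 780 in the Cre controls and at 666, 650 and 1158 in cKO, so in these columns cKO 3 alone was high, while within Ribo-Zero the difference was 0.27. It rose by 0.48 (limma adjusted p 0.0124), Ccnb1 by 0.37 and Cenpe by 0.27. Ccnd1, Ccne1, Plk4 and Bub1b fell by 0.28 to 0.62 on the log2 scale. The number of rises was 0 without cKO 3, 5 without Cre control 1 and 1 without cKO 1, cKO 2 or either Ribo-Zero control, and these last 4 omissions left 0 falls.

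Of 25 genes of the p53 response and apoptosis, 3 rose (Eda2r by 0.67, Ccng1 by 0.33 and Sesn1 by 0.22) and 2 fell, against 6.95% and 7.29% of all genes. The rises were 1 without Cre control 3 and 0 without cKO 1, cKO 2 or either Ribo-Zero control, and the falls 1 without any cKO library or Ribo-Zero control. Bcl2l1, which encodes the survival protein BCL-XL, stood at 2827, 2596, 2785 and 2562 against 1611, 1524 and 1758. The groups lay well apart in both kits, and it fell by 0.54 on the log2 scale (SE 0.060, limma adjusted p 0.00192). Mdm2, which restrains p53, fell by 0.29. Of 15 checkpoint genes 3 fell, with 5 without cKO 3. H2afx, the histone variant phosphorylated at breaks and on the sex chromosomes, stood at 25441, 19469, 22581 and 21736 against 7499, 8875 and 13793, without overlap, and fell by 1.10 (SE 0.15). Hus1b, a subunit of a checkpoint clamp that overlaps Exoc2 on the same strand, fell by 0.95, and Topbp1 by 0.40. Of 16 heat shock and unfolded protein response genes Hspb1 and Xbp1 rose, by 0.32 and 0.27, and Hspa5 fell by 0.29. For Hspb1 cKO 1 and 2 (1395 and 1308) lay below every Cre control, the lowest at 1849. For Hspa5 they (21364.5 and 20293.9) lay above every Cre control, the highest at 16328. The calls of Hspb1 and Hspa5 thus show only within each kit. Without any one cKO library or Ribo-Zero control the rises were 0.

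Interferon-stimulated genes were the list with the most rises, 22 of 30. They serve antiviral defence: IFIT proteins bind foreign RNA, ISG15 is a ubiquitin-like tag, IRF7, IRF9 and STAT2 carry the signal, and the sensors encoded by Ddx58 and Ifih1 detect double-stranded RNA. In cKO 3, 29 of the 30 were above the Cre control mean, as were 47.2% of all tested genes, and 18 were above all 4 Cre controls, against 24.0% of all tested genes. The size differed between the kits, with a median of 0.45 in cKO 3 (0.34 against Cre control 1) and of 1.47 within Ribo-Zero. For Ifit3b, the NEBNext effect minus the Ribo-Zero effect was -1.54, which did not pass the test (limma adjusted p 0.284).

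The Cre controls themselves varied in this list, with medians against the other Cre controls of 0.04, 0.36, 0.18 and -0.49 for libraries 1 to 4, so the 0.45 of cKO 3 lay not far above Cre control 2. The count of rises was 23 without Cre control 4 and 24 without cKO 3, but 8 without cKO 1 and 9 without cKO 2 or either Ribo-Zero control. With the kit as a covariate 0 of the 30 were called by limma, edgeR or DESeq2, and 6 were higher at an unadjusted p under 0.05. Of all tested genes 18.8% passed that limit in either direction.

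Short stretches of promoter from RefSeq (GRCm38.p6) are printed for 4 of these genes to show the element through which interferon-regulated factors are known to act. They were searched on both strands for GAAA followed, after any 2 bases, by GAAA, overlaps between matches allowed, within the 250 bases before the start. Capitals mark the matches, and each is given 5′ to 3′ on the gene's own strand.
Ifit1 (chr19:34640770-34640828, + strand): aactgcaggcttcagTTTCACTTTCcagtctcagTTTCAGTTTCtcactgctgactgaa
Ifit3 (chr19:34583358-34583431, + strand): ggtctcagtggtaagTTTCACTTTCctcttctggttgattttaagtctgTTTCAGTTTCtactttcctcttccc
Ifit3b (chr19:34607754-34607827, + strand): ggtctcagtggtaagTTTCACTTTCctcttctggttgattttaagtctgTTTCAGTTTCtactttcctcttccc
Isg15 (chr4:156200860-156200911, - strand): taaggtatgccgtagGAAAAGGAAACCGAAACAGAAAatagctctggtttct
The stretches of Ifit3 and Ifit3b were identical in 74 of 74 bases. A RefSeq promoter was given for 21 of the 30 genes and 10 of these held a match, 7 of them among the 17 genes that rose. The share was 3.46% of all 27025 genes with a promoter and 3.07% of the tested ones. A match of these letters is a description of the window and not evidence of a bound factor.

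Ifit1 stood at 63.2, 53.9, 47.9 and 15.6 normalized counts in the Cre controls and at 167, 177 and 68.8 in cKO. The groups did not overlap, but cKO 3 exceeded Cre control 1 by only 0.12 on the log2 scale and Cre control 4 was far below the other controls. Ifit1 rose by 1.76 (SE 0.46, limma adjusted p 0.0291). Ifit3 stood at 88.5, 96.4, 50.5 and 39.9 against 215, 266 and 118, and Ifit3b at 23, 22.8, 25.3 and 19.4 against 65.2, 88.8 and 41. Both rose, by 1.76 (SE 0.35) and 1.73 (SE 0.32), with no overlap between the groups, and the division of reads between these near-identical genes is uncertain. Isg15 rose by 1.34, Oasl1 by 1.18, Parp14 by 0.93 and Ifih1 by 0.61. Irf7 stood at 215, 306, 282 and 124 against 265, 311 and 314, so cKO 1 lay among the controls in these columns, although it rose by 1.43 over both kits. Dhx58 was 0.45 below the Cre control mean in cKO 3, and Dhx58, Adar, Ifi27, Mx1, Mx2, Rsad2, Cxcl10 and Oas1g were not called.

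Of 12 MHC class I genes 5 rose, with 3 without cKO 2 and 1 without cKO 1 or either Ribo-Zero control. B2m, the invariant light chain, stood at 1410, 1535, 1289 and 1167 against 2447, 2073 and 1853, without overlap, and rose by 0.69 (SE 0.11, limma adjusted p 0.00488). Psmb8 and Tap1, of the immunoproteasome and the peptide transporter, rose by 0.80 and 0.70. H2-K1 was 0.42 below the Cre control mean in cKO 3 and was not called.

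**Figure D4:**
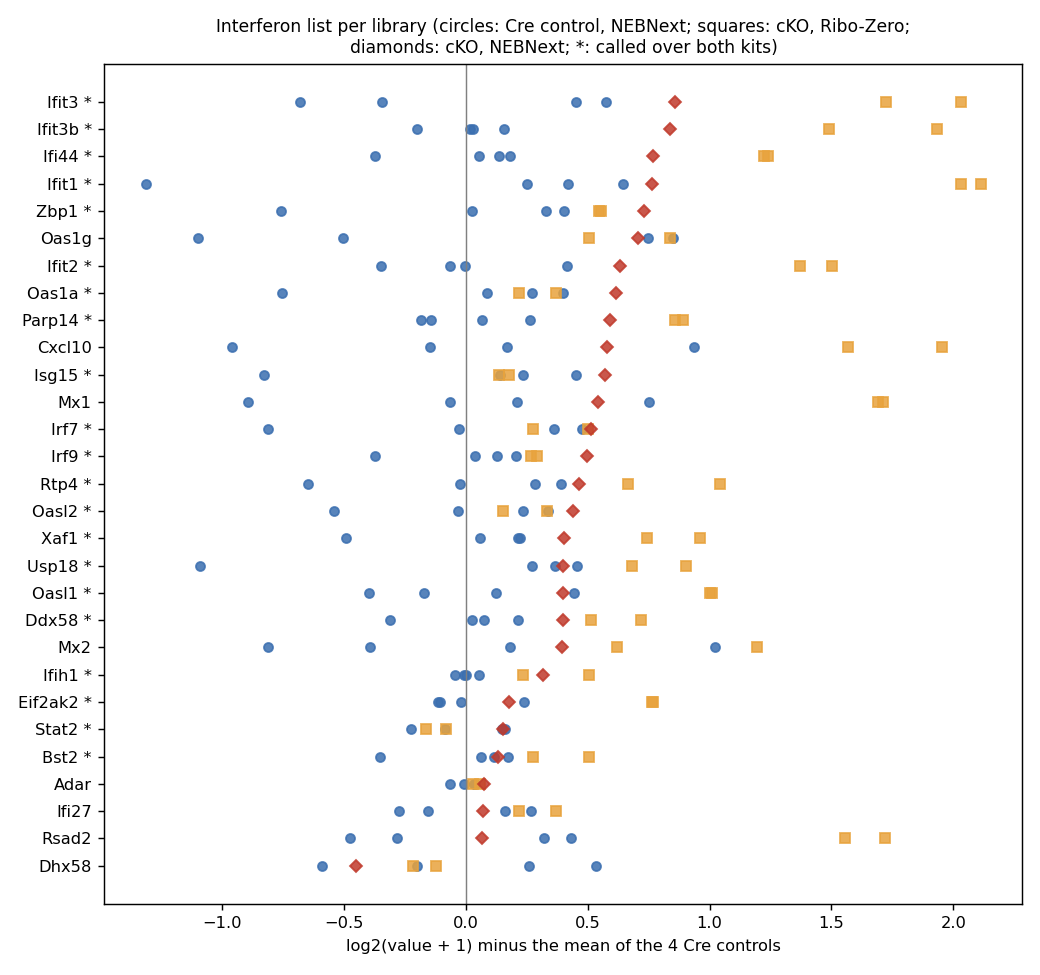
Genes of the interferon list (29 of 30 drawn), each library drawn as log2(value + 1) minus the mean of the 4 Cre controls (horizontal). Circles are Cre controls, squares cKO 1 and 2 (Ribo-Zero kit) and diamonds cKO 3, and a star marks the 21 drawn genes called over both kits. The diamonds lie right of 0 for 28 of the 29 genes, and 12 of them lie within or below the range of the circles.

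Macrophage markers were also mostly higher in cKO. Their median was 0.22 in cKO 3, inside the Cre controls' -0.17 to 0.31, and 0.62 within Ribo-Zero. Of 14 tested 5 rose (Adgre1, Lyz2, C1qa, C1qb and Mrc1), by 0.38 to 0.57. In cKO 3 13 were above the Cre control mean, against 47.2% of all tested genes. Above all Cre controls were 5 of the 14, against 24.0% of all tested genes. The summed level of the 14 was 3047 to 3869 in the Cre controls, 4585 and 4496 in cKO 1 and 2, and 4148 in cKO 3, and none of the 14 was at 0. Adgre1, which encodes the surface marker F4/80, stood at 151, 208, 165 and 156 against 235, 250 and 209, with cKO 3 almost level with Cre control 2. The count of rises was 3 without cKO 3 or Cre control 3, 2 without cKO 2 and 1 without cKO 1 or either Ribo-Zero control. The part of these cells in the interferon result was not tested. Sertoli genes had 4 of 20 rising (2 without cKO 1, Cre control 3, Cre control 4 or either Ribo-Zero control), with a median of 0.14 in cKO 3, inside the Cre controls' -0.23 to 0.21. Kitl, the growth factor of spermatogonia, stood at 2856, 3266, 2915 and 3355 against 6041, 5286 and 3899, without overlap, and rose by 0.44 (SE 0.072). In their own scaling the Ribo-Zero controls held 5010 and 4754 of Kitl, against 7375 and 6412 in cKO 1 and 2. Fshr, the receptor for follicle-stimulating hormone, rose by 0.41, Dhh by 0.31 and Clu by 0.26. Of 13 Leydig genes Pdgfra alone rose, by 0.55 (0 without any one cKO library or Ribo-Zero control), near the 6.95% of all genes. Of 13 peritubular myoid and vessel genes limma, edgeR and DESeq2 called 0, with 2 higher at an unadjusted p under 0.05 (31.5% of all genes passed it in either direction).

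Mitochondrial and long nuclear RNAs rose in 7 of 16 tested cases (3 without cKO 1, cKO 3 or Ribo-Zero control 1). mt-Nd2, of respiratory complex I, stood at 5010, 3874, 3155 and 3843 in the Cre controls and at 6580, 6480 and 6703 in cKO, with no overlap, and rose by 0.55 (SE 0.14, limma adjusted p 0.0251). Cre control 1, which shared the run of cKO 3, was the highest Cre control. In their own scaling the Ribo-Zero controls held 5999 and 6548 of mt-Nd2, against 8033 and 7860 in cKO 1 and 2. The list's median was 0.71 in cKO 3, 0.36 against Cre control 1 alone, and 0.26 within Ribo-Zero. The nuclear RNAs Kcnq1ot1 and Malat1 rose by 0.73 and 0.47. The part of the run in this result was not tested.

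Whether the cKO effect differed between the kits was tested as an interaction, in which kit, sequencing run and control type go together and cannot be told apart. Of 19528 genes 4 were called (0.0205%), and 2073 (10.6%) passed an unadjusted p of 0.05. edgeR called 17. Single libraries end these calls: limma called 0 genes without Cre control 3, cKO 1 or either Ribo-Zero control (1344 to 1660 at an unadjusted p under 0.05) and 1 without cKO 2. It called 40 higher and 4 lower without Cre control 1, and 115 and 20 without Cre control 4. Stra8, the retinoic acid target that starts meiosis, stood at 1318, 1240, 1216 and 1397 in the Cre controls and at 1521 in cKO 3, against 2560 and 2926 in the Ribo-Zero controls and 1236 and 1315 in cKO 1 and 2 of that table. It was above every Cre control in cKO 3 and lower within Ribo-Zero, a difference between the effects of 1.37 on the log2 scale (limma adjusted p 0.0207).

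M1ap, whose loss is known to arrest meiosis, showed the same order, with 973, 830, 915 and 994 in the Cre controls, 1069 in cKO 3, 1586 and 1749 in the Ribo-Zero controls and 726 and 753 in their cKO (difference 1.41). The histone gene Hist1h4j was lower in cKO in both kits, by 0.30 and 1.47 on the log2 scale, and Gm12260, which shares its strand and position with Trim17, by 0.56 and 2.17. The list of 18 replication-dependent histones had a median of 0.18 in cKO 3 and -0.67 within Ribo-Zero. Over both kits 4 of 18 fell (Hist1h1a by 0.80, Hist1h4c by 0.62, Hist1h1c by 0.56 and Hist1h2ac by 0.44 on the log2 scale), a count of 13 without cKO 3 and of 0 without cKO 1, cKO 2 or either Ribo-Zero control.

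**Figure D5:**
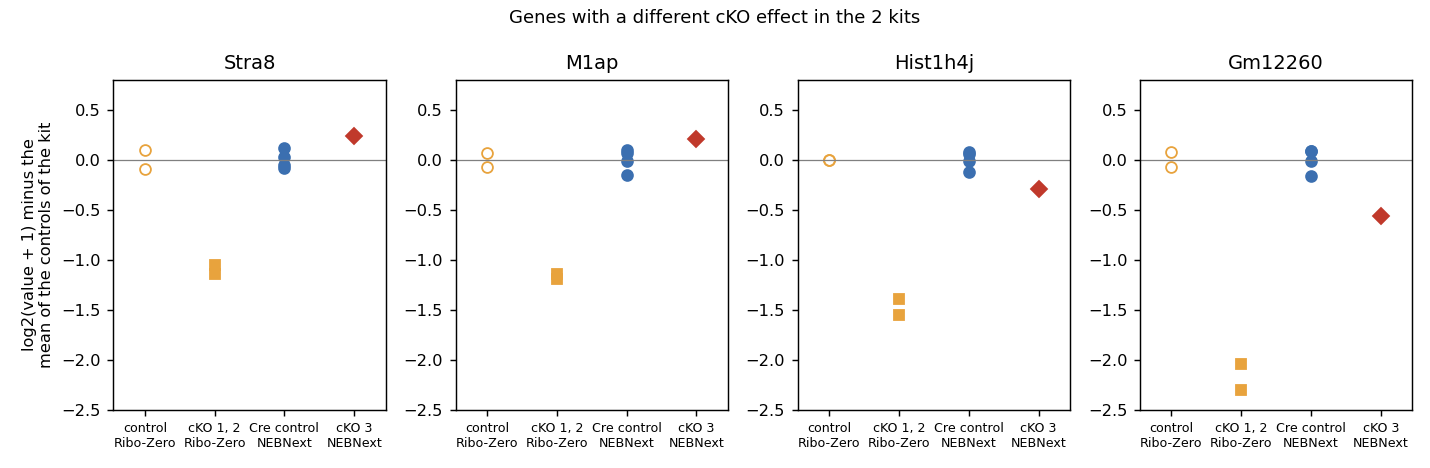
The 4 genes called for a difference of the cKO effect between the kits, drawn as log2(value + 1) minus the mean of the controls of the same kit (vertical). Open circles are Ribo-Zero controls, squares cKO 1 and 2, filled circles Cre controls and diamonds cKO 3. Stra8 and M1ap lie below 0 in cKO 1 and 2 and above 0 in cKO 3, whereas Hist1h4j and Gm12260 lie below 0 in both.

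cKO 3 was finally described on its own by its distance from all 4 Cre controls, for which no p-value is given; the test of cKO 3 against the Cre controls is the fit with the kit as a covariate. It lay above all 4 Cre controls by at least 1 on the log2 scale for 56 genes and below all of them by as much for 201. Most of these were scarce: with a value of at least 50 in 2 or more libraries the counts were 6 and 28. They were 490 and 1046 against Cre control 1 alone, and 104 and 358 without Cre control 1. The 4 protein-coding genes of the 6 were Pif1, 1700080O16Rik, Osmr and Tchh, and all 6 also rose over both kits. Osmr, the receptor for oncostatin M, stood at 120, 96.4, 77.5 and 114 in the Cre controls and at 275 in cKO 3, but at 148 and 126 in cKO 1 and 2. The long non-coding RNA Gm44067 had the largest excess, with 5.75, 7.25, 7.84 and 3.89 against 62.2, and 79.5 and 103 in cKO 1 and 2.

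Of the 28 lower genes 15 were protein-coding and 16 fell over both kits. Smpd3, a sphingomyelinase gene, stood at 252, 203, 207 and 244 in the Cre controls, at 99.3 in cKO 3 and at 102 and 79.4 in cKO 1 and 2. All cKO libraries lay at less than any control, and Smpd3 fell by 1.33 on the log2 scale (SE 0.14, limma adjusted p 0.0014). Rhd, of the Rhesus blood group, stood at 69.0, 61.1, 65.3 and 69.0 against 26.5 in cKO 3 and 26.2 and 21.3 in the other cKO libraries, and fell by 1.60. Osmr, Tchh, Gm44067, Smpd3 and Rhd were singled out after their values were seen.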

How the data were processed

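Testis RNA-seq of 7 P16 libraries was analysed (3 cKO, 4 Cre control), with 2 Ribo-Zero controls added for the fit over both kits. The authors deposited gene-level signal, reads divided by a size factor; Trim Galore, STAR, HTSeq, DESeq2 and GRCm39 are named in the submitters' processing notes, and versions, annotation and strand setting were not given in the sources used here. Overlapping genes may therefore share reads. Whole reads were recovered for 100% of values (tolerance 0.01) in 11 columns, and 0 columns of per-sample values were unmatched. The 4 summary rows that name no gene were left out: with NEBNext and Ribo-Zero, unmapped reads took 30.7% to 41.1% and 18.9% to 21.1% of reads, multimapping 5.81% to 6.84% and 9.56% to 10.3%, no feature 12.6% to 14.6% and 25.2% to 27.2%, and ambiguous 2.13% to 2.80% and 1.37% to 1.55%. Of 55414 gene IDs 52081 were matched to a symbol.

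A gene was tested where 2 or more libraries held a value of 10 or above, with limma 3.58.1 (R 4.3.3, trend) on log2(value + 1), which understates changes of low genes, with Benjamini-Hochberg adjustment and a threshold of 0.05. The fit over both kits, which joins separately scaled tables, used TMM-scaled log2 CPM of the recovered reads (prior count 1) with kit as a covariate. edgeR 4.0.16 and DESeq2 1.42.0 on the recovered reads were alternatives, besides other pseudocounts, filters, scalings and left-out libraries. The scripts were tested on simulated data.

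Named genes were up to 12 protein-coding genes per direction, ranked by the kit-covariate change among genes called without a kit term, with every cKO library beyond every Cre control and a group mean of at least 100. Up to 4 members per list were added (group mean of at least 50), ranked by change over both kits, and up to 4 genes called for the difference between kits. Other list members are named to account for a count. The 25 lists matched 457 genes; Brme1, Six6os1, Shoc1, Rn7sk, Rn7sl1, Rn7s1 and Rn7s2 were not matched. The members, lists and tests were chosen with earlier results of these data known. Values of 2 list members are not reported here.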

Additional observations from a re-analysis of the deposited data

Results flagged for a closer look

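In 122 named genes and the library measures, the 4 Cre controls were searched for a library far from the other 3 (Dixon's test), which chance gives in about 1 in 20 groups. It was met by 3 genes: C1qb, a complement gene of macrophages, at 358.5 in Cre control 2, Hist1h4c at 10490 in Cre control 1, and mt-Nd4 at 3667 in Cre control 1. Cre control 1 also had the highest share of ambiguous reads, 2.80%. The cKO effect with NEBNext exceeded that with Ribo-Zero by 1.37 for Stra8, 1.41 for M1ap, 1.21 for Hist1h4j and 1.65 for Gm12260 on the log2 scale, each past the limma test of the difference between kits with all libraries, a call that none of the 4 kept without Cre control 3, cKO 1 or either Ribo-Zero control.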

How the results depend on the processing

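No named gene reversed its sign in the fits checked for it. The balance of the counts without a kit term did turn over. More genes were lower than higher there, but more were higher under several alternatives, such as edgeR (1027 and 527), TMM (980 and 738) and quantile scaling (1795 and 1299). With the kit as a covariate (0 higher, 1 lower), DESeq2 called 143 and 324, no filter 411 and 64, and a pseudocount of 0.1 gave 17 lower; edgeR, a minimum value of 50, no trend, the sequencing run as covariate and the second kit only gave 0 lower. Leaving out 1 library gave 0 to 58 higher and 0 to 198 lower, and cKO 3 could not be left out. Without a kit term (825 and 916), DESeq2 called 2131 and 2057, edgeR 527 lower, a pseudocount of 10 gave 1283 and 1994, no filter 420 and 497, quantile scaling 1795 higher, and no trend 18 and 14; leaving out 1 library gave 0 to 3843 and 0 to 5584. Over both kits, no trend gave 548 and 639, and leaving out 1 library 314 to 1455 and 361 to 1850. For the difference between kits (4 and 0), edgeR called 17 higher, no filter 0, and leaving out 1 library gave 0 to 115 and 0 to 20. For cKO 3 alone (56 and 201), Cre control 1 alone gave 490 and 1046, a pseudocount of 10 gave 10 and 23, a minimum of 50 gave 6 and 28, and leaving out 1 Cre control 74 to 104 and 228 to 358. The causes were not tested, except that omissions leave fewer samples.

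Libraries numbered 1 and 3 deviated together (r of 0.304 and 0.225) and those numbered 2 did not (r of -0.0704). Each cKO library was set against a cKO mean that mixes the kits, so these values cannot decide on pairing. The numbers were not taken to pair the libraries. With the replicate block limma called 124 up and 432 down in the kit-covariate fit (Ythdc2 adjusted p 1.02e-48), 0 and 0 without a kit term (5790 at an unadjusted p under 0.05, limma), and 477 and 463 over both kits. For named genes over both kits, 1186 results of alternatives kept their side of the threshold and 302 lost it. The depth of cKO 3, the lowest, limits scarce genes most.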

Other observations

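Protein-coding genes of the X chromosome, which is silenced in pachytene spermatocytes, were higher in cKO 3. The median difference of 599 X genes from the Cre controls was 0.19 on the log2 scale, and 0.27 from Cre control 1 alone. Of them 281 (46.9%) were above all 4 Cre controls and 52 (8.68%) below, against 25.7% and 28.4% of 14245 autosomal genes. The 4 Cre controls, each against the other 3, had X medians of -0.10, 0.07, -0.08 and 0.14. Within Ribo-Zero the X median was 0.05, and over both kits 72 X genes (12.02%) were called higher and 22 (3.67%) lower, against 8.47% and 8.90% of autosomal genes. No test of the chromosome as a group was made.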
